A study of Mus musculus with 24 samples.

Results

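Hepatocytes of aged mice that ate a high-fat diet (HFD) were compared between animals that received rapamycin and animals that received vehicle, so that the diet was equal on both sides. The comparison uses 16 of the 24 libraries of the series, chosen by the sample labels alone: 7 of mice on HFD with vehicle (HFD+veh) and 9 of mice on HFD with encapsulated rapamycin (HFD+eRapa). All mice were C57BL/6J. The study describes them as male. They had started on a normal diet (ND) with vehicle or with rapamycin at 42 ppm of the diet when they were 4 months old. At 18 months both groups switched to a diet that drew 60% of its calories from fat, which they ate for 9 weeks with the agent continued. In another group, 8 mice stayed on ND with vehicle (ND+veh). Its values are given only as a reference level, and it entered the fit that estimates the spread between animals. Rapamycin was thus given for many months before the fat was added, and with no rapamycin-fed ND group among the 24 libraries, the effects of the drug before and during HFD cannot be told apart. Each library came from polyA RNA of hepatocytes that were isolated from the liver of 1 mouse by a 2-step perfusion. The samples are labelled as 1 batch.

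Rapamycin binds the small protein FKBP12, and this pair inhibits the kinase mTOR, chiefly in the complex that holds Raptor (mTORC1). That complex promotes protein synthesis, ribosome production and lipid synthesis and restrains autophagy, and long treatment also disturbs the Rictor-containing complex, mTORC2. Hepatocytes store and burn fat, clear drugs and nitrogen, make bile acids and secrete most plasma proteins. They divide these tasks along the liver lobule between a periportal and a pericentral zone. In mice many of their enzymes also differ between the sexes under the control of growth hormone.

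Total counts per library lay between 19.8 and 22 M (M, units of 1000000) in HFD+veh and between 17.8 and 23.6 M in HFD+eRapa. Expression is in counts per M (CPM), scaled between libraries by the trimmed mean of M-values (TMM). Changes are log2 fold changes of HFD+eRapa over HFD+veh with their standard error (SE) and a Benjamini-Hochberg adjusted p from edgeR's quasi-likelihood test, and a gene with an adjusted p under 0.05 is termed called. Except where libraries are stated to be left out, n = 7 for HFD+veh and n = 9 for HFD+eRapa.

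Of 13847 genes tested, 4432 were called, or 32.0%. The calls leaned downward: 1507 genes were higher in HFD+eRapa (10.9% of those tested) and 2925 were lower (21.1%). When libraries were scaled by total counts alone, the split was 968 higher and 3205 lower. At 298 higher and 1986 lower genes, the called changes of at least 1 on the log2 scale were mostly falls. The 7 and 9 animals did not overlap at all for 358 genes (2.59%), 179 of them higher and 179 lower. The counts given for each gene list below are to be read beside these shares.

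The lower calls have to be read beside a difference in cell makeup between the libraries. All 11 markers of sinusoidal endothelial cells, all 11 tested markers of stellate cells, 9 of 9 markers of recruited macrophages and 9 of 11 markers of Kupffer cells were called lower in HFD+eRapa. The summed level of the 11 Kupffer cell markers ran from 177 to 4713 CPM in HFD+veh (median 2538) and from 14.6 to 1043 CPM in HFD+eRapa (median 199). The summed stellate cell markers ran from 40.8 to 594 CPM in HFD+veh (median 186) and from 26.3 to 110 CPM in HFD+eRapa (median 54.5), and the summed recruited macrophage markers from 53 to 2373 CPM and from 22.9 to 257 CPM. No marker on these lists was without a read in either group. Both groups overlapped in each of these sums. HFD+veh replicates 1, 2 and 7 lay within the HFD+eRapa range in each, and replicates 3, 4, 5 and 6 lay above it.

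HFD+veh replicates 3, 4, 5 and 6 stood apart. Their mean score over 29 immune marker genes was 1.46, 1.39, 1.21 and 1.80, whereas HFD+veh replicates 1, 2 and 7 had -0.50, -0.46 and 0.58 and the highest HFD+eRapa library reached 0.54. The hepatocyte markers did not move in this way. Of 12 of them, 2 were called higher and 0 lower (2 higher and 2 lower under total count scaling), with a median log2 fold change of 0.27, and their sum ran from 115488 to 197717 CPM in HFD+veh and from 71238 to 170531 CPM in HFD+eRapa. In such bulk libraries, fewer cells of a type and less RNA per cell cannot be told apart. Most results below are therefore also given from a fit that leaves out these 4 libraries, termed the 20-library fit. In it only replicates 1, 2 and 7 stand for HFD+veh, so it has less power. A call can be lost there while the log2 fold change stays the same. It called 440 genes, 172 of them higher (1.24%) and 268 lower (1.94%), and 396 of the 440 were also called in the same direction with all 24 libraries. A fit that took the immune marker score as covariate called 416 genes higher (3.0%) and 539 lower (3.89%).

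**Figure D1:**
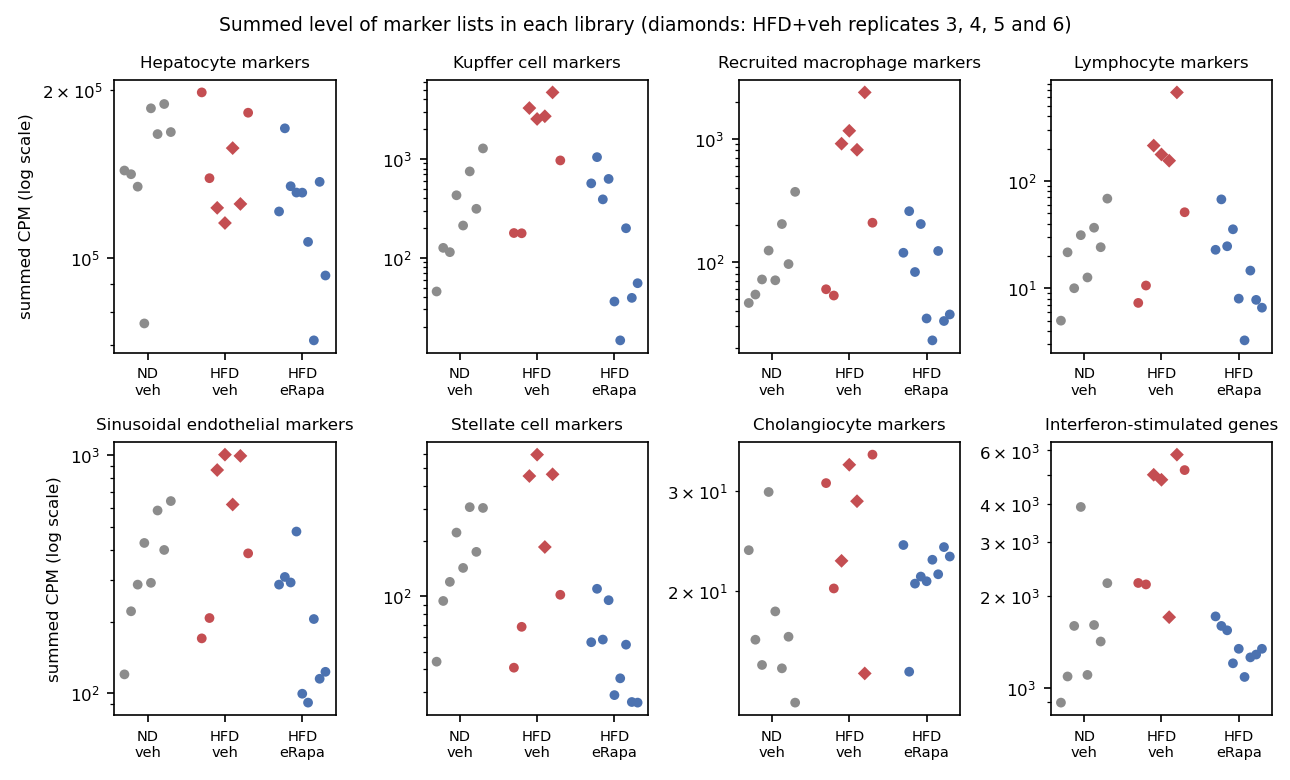
Summed CPM (log scale) of the markers of 7 cell types and of the interferon-stimulated genes, 1 point per library, in ND+veh, HFD+veh and HFD+eRapa; diamonds are HFD+veh replicates 3, 4, 5 and 6. These 4 libraries hold the highest Kupffer cell, macrophage and lymphocyte sums, while the hepatocyte sums of both HFD groups overlap widely.

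The transcripts of the drug's own target were measured first. Mtor, the kinase itself, lay between 32.6 and 59.0 CPM in HFD+veh (median 41.7) and between 48.0 and 84.8 CPM in HFD+eRapa (median 65.4). The groups overlapped, and Mtor was called higher (log2 fold change 0.56, SE 0.14, edgeR adjusted p = 0.00398). Rptor, which encodes Raptor, likewise rose from a median of 30.5 to 44.5 CPM (0.55, SE 0.14, edgeR adjusted p = 0.00651). Rictor gave -0.13 (SE 0.16, edgeR adjusted p = 0.591), and Fkbp1a, which encodes FKBP12, gave 0.03 (SE 0.16, edgeR adjusted p = 0.905), with the sign of Fkbp1a turning to -0.08 under total count scaling. In the 20-library fit Mtor and Rptor had log2 fold changes of 0.41 and 0.33 and were not called (adjusted p = 0.313 and 0.448).

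Among 51 tested genes of the mTOR complexes and their regulators, 6 were called higher and 8 lower, with a median log2 fold change of 0.06 beside -0.04 over all genes tested. The share called, 27.5%, was below the 32.0% of all genes tested. Eif4ebp2, a translational repressor that mTORC1 phosphorylates, rose from a median of 136 to 229 CPM, and the translation factor Eif4b rose from 185 to 239 CPM. Sgk1, a kinase activated through mTORC2, fell from a median of 38.6 to 13.5 CPM (log2 fold change -1.63, SE 0.37, edgeR adjusted p = 0.00285). Sesn1, a stress-induced inhibitor of mTORC1, fell by 0.83 on the log2 scale. In the 20-library fit no gene of this list was called.

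Few genes of the machinery that mTOR drives were called. Of 78 cytosolic ribosomal protein genes, 5 were called higher and 0 lower, with a median log2 fold change of 0.08. The 20-library fit called 1 higher, with a median of 0.38. The 37 ribosome biogenesis genes had 7 higher and 0 lower (median 0.12), and the 73 nuclear subunits of the respiratory chain had 3 higher and 0 lower (median 0.15). No gene of these 2 lists was called in the 20-library fit, where their medians were 0.13 and 0.07. The shares called higher on these lists lay from below to somewhat above the 10.9% of all genes. Targets of the amino acid response factor ATF4, which mTORC1 can induce, had 1 higher and 7 lower of 22, with a median of -0.30 that was 0.00 in the 20-library fit.

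**Figure D2:**
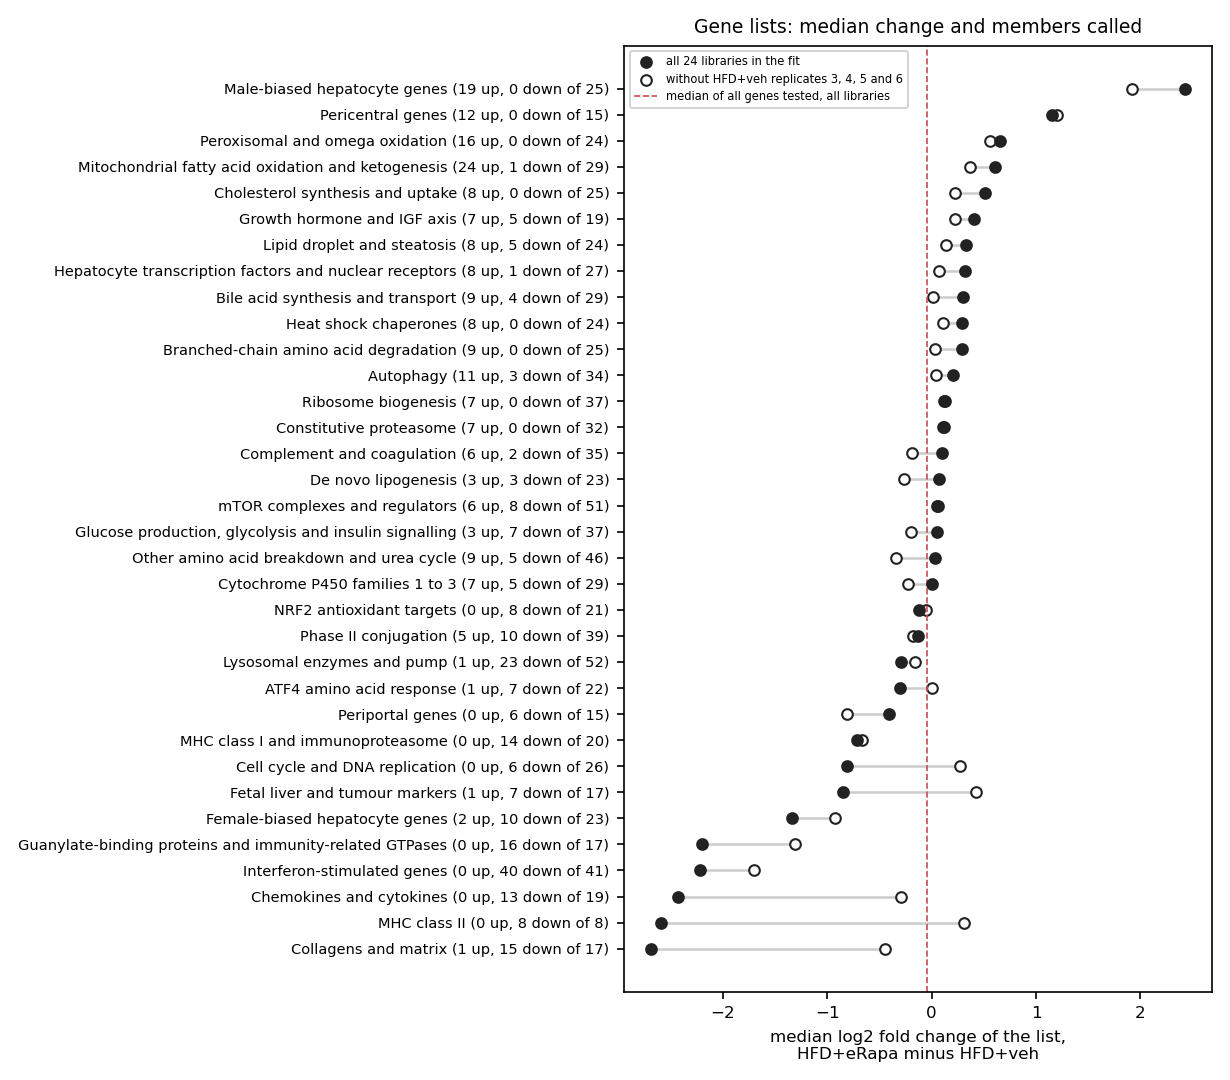
Median log2 fold change (HFD+eRapa minus HFD+veh) of each pathway list with 6 or more members called, from all 24 libraries (filled) and without HFD+veh replicates 3, 4, 5 and 6 (open), with the members called beside the name and the median of all genes as a dashed line. Male-biased and pericentral genes lie highest with either set, whereas the MHC class II, collagen, chemokine, cell cycle and fetal liver medians move to between -0.45 and 0.43 once the 4 libraries are left out.

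Transcripts of fatty acid oxidation rose broadly in HFD+eRapa. Of 29 genes of mitochondrial β-oxidation and ketogenesis, 24 were called higher and 1 lower, with a median log2 fold change of 0.61, and in 11 of them the groups did not overlap. Among all genes tested, 10.9% were called higher and 2.59% did not overlap. Eci2, an isomerase that lets unsaturated fatty acids enter β-oxidation (mm10 chr13:34977748-35027096), lay between 86.1 and 127 CPM in HFD+veh (median 114) and between 191 and 278 CPM in HFD+eRapa (median 232). No animal of one group reached the other (log2 fold change 1.10, SE 0.14, edgeR adjusted p = 1.28e-05), and Eci2 was also called in the 20-library fit (0.98, adjusted p = 0.0051).

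Ppara, the nuclear receptor that switches on fat burning in fasting, rose from a median of 44.0 to 113 CPM (log2 fold change 1.06, SE 0.24, edgeR adjusted p = 0.00236), with overlap between 93.8 CPM, the lowest HFD+eRapa library, and 123 CPM, the highest HFD+veh library. Acsl1, which activates long-chain fatty acids to their CoA esters, rose from a median of 683 to 1217 CPM without overlap (1.00, SE 0.20, edgeR adjusted p = 0.00118). Neither was called in the 20-library fit, where they gave 0.56 and 0.58. In that fit 6 genes of the list were called higher and 1 lower, with a median of 0.37, and with the immune score as a covariate 14 were called higher and 1 lower. The gene called lower with all libraries and in the 20-library fit was Ppargc1a, named after its values were seen. It gave -0.89 (SE 0.23, edgeR adjusted p = 0.00525) and -0.93 (adjusted p = 0.0455).

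Peroxisomal β-oxidation and the ω-oxidation that prepares fatty acids for it moved with the mitochondrial genes: 16 of 24 were called higher and 0 lower, with a median of 0.66, and the 20-library fit called 6 higher and 0 lower with a median of 0.56. Aldh3a2, the fatty aldehyde dehydrogenase of the ω-pathway (mm10 chr11:61223417-61267464), ranged from 213 to 551 CPM in HFD+veh (median 340) and from 669 to 1218 CPM in HFD+eRapa (median 889). Every HFD+eRapa animal was above every HFD+veh animal (log2 fold change 1.49, SE 0.19, edgeR adjusted p = 1.60e-05), and ND+veh had a median of 548 CPM. Cyp4a32, a member of the fatty acid ω-hydroxylase family, rose from a median of 15.7 to 39.0 CPM, also without overlap (1.17, SE 0.16, edgeR adjusted p = 3.58e-05). Acot1, a cytosolic acyl-CoA thioesterase, went from 12.8 to 40.8 CPM (1.46, SE 0.29, edgeR adjusted p = 0.000964). Cyp4a32 was called in the 20-library fit (0.92, adjusted p = 0.0168) and Acot1 was not (1.5, adjusted p = 0.0524). Both Cyp4a32 and Acot1 belong to clusters of near-identical copies between which reads may be split. Cat, which encodes catalase and is the most highly counted gene on the list, gave 0.27 (edgeR adjusted p = 0.147).

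Genes of lipid droplets did not share 1 direction. Of 24 tested, 8 were called higher and 5 lower, with a median log2 fold change of 0.33. Among all genes 10.9% were called higher and 21.1% lower, so the lower calls were near the share of all genes. The higher ones included proteins that build and enlarge droplets. Fitm2, which partitions newly made triglyceride into droplets at the endoplasmic reticulum, lay between 22 and 59.3 CPM in HFD+veh (median 39.5) and between 62.9 and 109 CPM in HFD+eRapa (median 97.3). The groups did not overlap (1.17, SE 0.15, edgeR adjusted p = 1.81e-05). Its relative Fitm1 rose from a median of 14.3 to 61.1 CPM, also without overlap (2.28, SE 0.33, edgeR adjusted p = 7.31e-05).

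Cidec, which fuses droplets into larger ones, rose from a median of 13 to 39.7 CPM (log2 fold change 1.96, SE 0.40, edgeR adjusted p = 0.00147), and its groups touched, with 25.4 CPM in the highest HFD+veh library and 21 CPM in the lowest HFD+eRapa library. A further member of that family, Cidea, is named here after its values were seen, since its mean level was below the limit set for named genes. Cidea was at 0.209 to 5.69 CPM in HFD+veh (median 0.887) and at 13.4 to 49.0 CPM in HFD+eRapa (median 36.7), with a median of 0.187 CPM in ND+veh. It was the largest rise on the droplet list (4.16, SE 0.65, edgeR adjusted p = 0.00014, and 4.88 without HFD+veh replicate 4). Per length, the median of Cidea went from 0.717 to 35.3 FPKM (fragments per kilobase and M fragments), next to a change from 11.2 to 32.8 FPKM for Cidec. Fitm1, Fitm2, Cidec and Cidea were the 4 droplet genes called higher in the 20-library fit as well, with adjusted p of 0.00868, 0.00323, 0.0372 and 0.00122, and none was called lower there.

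The called falls on the droplet list behaved differently. Lpl, the lipase that frees fatty acids from lipoproteins, ran from 9.18 to 604 CPM in HFD+veh (median 150) and from 2.93 to 46.4 CPM in HFD+eRapa (median 16.5). The 4 HFD+veh libraries with high immune markers were those from 150 to 604 CPM, and the other 3 had 9.18, 12.9 and 33.9 CPM. With all libraries the log2 fold change was -3.34 (SE 0.87, edgeR adjusted p = 0.00613), but it was -2.66 without HFD+veh replicate 6 alone and 0.07 (adjusted p = 0.99) in the 20-library fit. The fatty acid importer Cd36 had -1.25 (SE 0.40, edgeR adjusted p = 0.0216) and -0.12 (adjusted p = 0.965) in the 20-library fit, and its call ended without HFD+veh replicate 6 alone (-0.76, adjusted p = 0.146). Hsd17b13, a droplet enzyme of hepatocytes, kept its size: it fell from a median of 966 to 515 CPM (-0.79, SE 0.16, edgeR adjusted p = 0.00148) and had -0.77 (adjusted p = 0.0628) in the 20-library fit. The part of the nonparenchymal cells in the falls of Lpl and Cd36 was not tested.

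Fat and sterol synthesis changed less. Of 23 genes of de novo lipogenesis, 3 were called higher and 3 lower, with a median of 0.07 that was -0.26 in the 20-library fit. The share called was 26.1%, beside 32.0% of all genes tested. Acly, which makes cytosolic acetyl-CoA, fell from a median of 517 to 323 CPM (log2 fold change -0.67, SE 0.25, edgeR adjusted p = 0.0422), and the desaturase gene Fads2 rose from 746 to 1345 CPM (0.70, SE 0.22, edgeR adjusted p = 0.0164). The call of Acly was lost on leaving out any 1 of 13 libraries, HFD+veh replicates 1, 2, 3, 5 and 7 and all HFD+eRapa replicates except 5, with adjusted p between 0.0512 and 0.0824. The 20-library fit called 0 genes of the list and gave -0.96 for Acly (adjusted p = 0.132) and 0.21 for Fads2 (adjusted p = 0.758). Scd1, the stearoyl-CoA desaturase, was at a median of 7634 CPM in HFD+veh and 5282 CPM in HFD+eRapa and was not called (-0.25, SE 0.28, edgeR adjusted p = 0.53). Cholesterol synthesis and uptake had 8 of 25 genes called higher and 0 lower, with a median of 0.51. Tm7sf2, a sterol reductase, rose by 0.98 (SE 0.22, edgeR adjusted p = 0.00239) and Hmgcs1, an early enzyme of the pathway, by 0.82 (SE 0.25, edgeR adjusted p = 0.017). The 20-library fit called 0 of the 25 genes, with a median of 0.22. Without HFD+veh replicate 7 alone, 13 were called.

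Hepatocyte genes that are usually higher in male mice made up the largest rises. Of 25 tested, 19 were called higher and 0 lower, with a median log2 fold change of 2.43, and in 10 of them the groups did not overlap. The shares over all genes were 10.9% called higher and 2.59% without overlap. Slco1a1, an organic anion transporter of the sinusoidal membrane (mm10 chr6:141907282-141946962), had 4.43, 17.5, 5.89, 4.23, 2.08, 1.98 and 26.4 CPM in HFD+veh replicates 1 to 7. In HFD+eRapa it ran from 199 to 732 CPM (median 496). Even the highest HFD+veh animal was thus far below the lowest HFD+eRapa animal (5.80, SE 0.59, edgeR adjusted p = 2.06e-06), and the 20-library fit also called it (4.95, adjusted p = 0.00029). In ND+veh its median was 352 CPM.

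Cyp7b1, the oxysterol 7α-hydroxylase of the acidic bile acid pathway (mm10 chr3:18071950-18243338), lay between 33.1 and 98.0 CPM in HFD+veh (median 48.2) and between 145 and 553 CPM in HFD+eRapa (median 265). Its groups did not overlap (log2 fold change 2.43, SE 0.31, edgeR adjusted p = 1.98e-05), and it was called in the 20-library fit (2.03, adjusted p = 0.0124). Elovl3, an elongase of very long-chain fatty acids, was at 23.2 to 41.9 CPM in 6 HFD+veh libraries and at 235 CPM in HFD+veh replicate 7, against 258 to 463 CPM in HFD+eRapa (median 366). The groups were apart, by little for that 1 library (2.59, SE 0.46, edgeR adjusted p = 0.000461, and 3.50 without that library), and the 20-library fit, in which replicate 7 is 1 of 3 HFD+veh libraries, gave 1.92 (adjusted p = 0.0799). Hsd3b5, a male-specific steroid dehydrogenase, is named after its values were seen. It had at most 0.264 CPM in HFD+veh and 6.25 to 301 CPM in HFD+eRapa (median 44.3), and it was called in both fits (adjusted p = 5.18e-05 with all libraries and 0.0245 in the 20-library fit).

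The major urinary proteins, pheromone carriers secreted by male liver, include the 2 largest rises of any gene that met the naming rule. Mup15 (mm10 chr4:61435790-61439743) was at 0.0926 to 1.98 CPM in HFD+veh (median 0.730) and at 19.4 to 617 CPM in HFD+eRapa (median 107; log2 fold change 8.21, SE 0.96, edgeR adjusted p = 8.66e-06). Mup7 (mm10 chr4:60066469-60070475) was at 0.356 to 11.5 CPM and at 32.1 to 1400 CPM (median 332; 7.65, SE 1.29, edgeR adjusted p = 0.000309, and 8.70 without HFD+veh replicate 7). Within HFD+eRapa, Mup7 was unevenly spread, with 738 to 1400 CPM in replicates 5, 6, 8 and 9 and 32.1 to 332 CPM in the other 5. The same 4 libraries were highest in Hsd3b5, at 148 to 301 CPM. They were also lowest in the group for the immune marker score, at -1.42 to -0.84 against -0.10 to 0.54 in the other 5. For the stromal marker score they had -1.15 to -0.98 against -0.31 to 0.30. The 20-library fit removes no HFD+eRapa library, and the part of this marker difference in the spread was not tested. Mup3, the most abundantly counted gene of this list, changed less, from a median of 3600 to 7803 CPM (1.16, SE 0.34, edgeR adjusted p = 0.0122). Mup15 was called in the 20-library fit (7.57, adjusted p = 0.00614), whereas Mup7 gave 6.69 (adjusted p = 0.0528) and Mup3 gave 0.83 (adjusted p = 0.478).

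The Mup genes lie in an array of near-identical copies on chromosome 4, so that reads of one copy may be counted for another and the value of a single copy is uncertain. Their promoter windows show how close the copies are. The shared 173 bases of the RefSeq promoter windows of Mup15 (GRCm38.p6 chr4:61439782-61439954, minus strand) and Mup7 (GRCm38.p6 chr4:60070426-60070598, minus strand) are printed 5′ to 3′, with the 4 bases that differ in capitals. The other 169 bases are identical (97.7%). Relative to the start, the stretch runs from -250 to -77 in Mup15 and from -123 to 50 in Mup7. In Mup7 its last 50 bases thus lie after the start.
Mup15: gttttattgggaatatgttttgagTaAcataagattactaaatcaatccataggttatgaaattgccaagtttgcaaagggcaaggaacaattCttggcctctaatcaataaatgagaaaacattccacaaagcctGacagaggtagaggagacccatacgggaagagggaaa
Mup7: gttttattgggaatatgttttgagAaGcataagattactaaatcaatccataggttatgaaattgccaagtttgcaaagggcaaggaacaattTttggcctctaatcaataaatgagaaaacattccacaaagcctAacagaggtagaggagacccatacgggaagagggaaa

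Genes that are usually higher in female mice moved mostly the other way, in fewer members: 10 of 23 tested were called lower and 2 higher, with a median log2 fold change of -1.34. The shares over all genes were 21.1% called lower and 10.9% called higher. Cyp2b9, a female-specific P450 of family 2 (mm10 chr7:26173411-26210661), lay between 109 and 218 CPM in HFD+veh (median 198) and between 2.16 and 50.0 CPM in HFD+eRapa (median 7.54). The groups did not overlap (-3.33, SE 0.76, edgeR adjusted p = 0.00285), and the 20-library fit gave -3.06 (adjusted p = 0.0843). Cyp2a4, a steroid 15α-hydroxylase that shares most of its sequence with Cyp2a5, ran from 25.0 to 273 CPM and from 0.169 to 15 CPM (median 124 and 2.35; -4.64, SE 1.10, edgeR adjusted p = 0.00362), and gave -3.91 (adjusted p = 0.098) in the 20-library fit. Cyp39a1, the 24-hydroxycholesterol 7α-hydroxylase (mm10 chr17:43667425-43751431), fell from a median of 49.2 to 8.87 CPM without overlap (-2.31, SE 0.35, edgeR adjusted p = 0.000102), also in the 20-library fit (-2.38, adjusted p = 0.0048). Its ND+veh median was 71.9 CPM.

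Hamp2, a paralog of the iron hormone gene Hamp and named after its values were seen, was at 10.8 to 103 CPM in HFD+veh (median 35.5) and at 0.369 to 1.46 CPM in HFD+eRapa (median 0.619). Its log2 fold change was -5.73 (SE 0.53, edgeR adjusted p = 6.30e-07) and -5.12 in the 20-library fit (adjusted p = 7.22e-05), while Hamp itself was among the acute phase genes not called. Rarres1, listed as female-biased, went against the list and rose from a median of 29.6 to 67.4 CPM (1.65, SE 0.34, edgeR adjusted p = 0.00151; 1.54, adjusted p = 0.0889 in the 20-library fit). In the 20-library fit 8 male-biased genes were called higher with a median of 1.92, and 5 female-biased genes were called lower with a median of -0.92. No male-biased gene was called lower and no female-biased gene higher in that fit.

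The growth hormone and IGF axis had 7 genes called higher and 5 lower of 19, beside 10.9% higher and 21.1% lower calls among all genes. Onecut1, a transcription factor induced by growth hormone, rose from a median of 3.97 to 26.6 CPM (log2 fold change 2.38, SE 0.58, edgeR adjusted p = 0.00416), Igfbp2, an IGF-binding protein, from 42.9 to 320 CPM (1.94, SE 0.46, edgeR adjusted p = 0.00356), and Socs2, a feedback inhibitor of growth hormone signalling, from 4.58 to 18.2 CPM (1.86, SE 0.42, edgeR adjusted p = 0.00275). All 3 overlapped between the groups and none was called in the 20-library fit, where they gave 1.64, 1.2 and 1.66. The falls included Igfbp7 (-1.36, edgeR adjusted p = 0.00609) and Jak2 (-0.59, edgeR adjusted p = 0.00815). The 20-library fit called 0 genes of the axis higher and 1 lower.

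**Figure D3:**
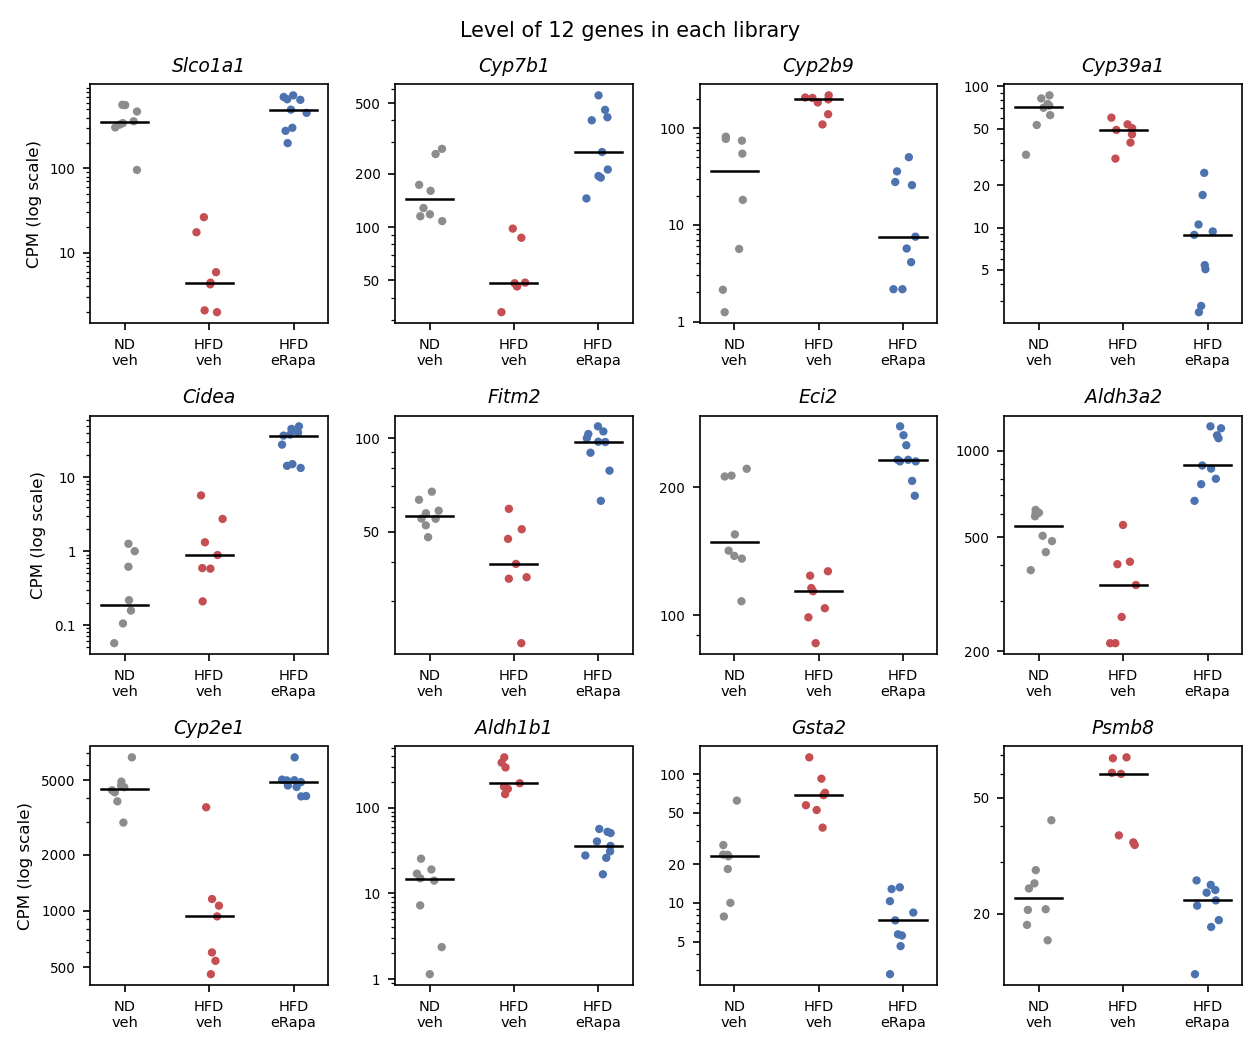
CPM (log scale) of 12 genes in each library of ND+veh, HFD+veh and HFD+eRapa, with the group median as a bar; 1 ND+veh library without a read of Cidea is not drawn. In each panel no HFD+eRapa animal reached an HFD+veh animal; for Slco1a1, Cyp2e1 and Psmb8 the HFD+eRapa medians of 496, 4886 and 22.2 CPM lie near the ND+veh medians of 352, 4503 and 22.5 CPM, whereas for Cidea and Cyp39a1 they do not.

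Genes of the pericentral zone rose. Of 15, 12 were called higher and 0 lower, with a median log2 fold change of 1.15, beside 10.9% higher calls among all genes. Cyp2e1, the ethanol- and acetaminophen-metabolizing P450 of pericentral hepatocytes (mm10 chr7:140763739-140774987), lay between 459 and 3584 CPM in HFD+veh (median 935) and between 4096 and 6625 CPM in HFD+eRapa (median 4886). The groups did not overlap, and HFD+veh replicate 2, at 3584 CPM, was well above the other 6, which reached at most 1158 CPM (2.04, SE 0.32, edgeR adjusted p = 0.00014). Gulo, which makes vitamin C, rose from a median of 114 to 463 CPM, also without overlap (1.98, SE 0.31, edgeR adjusted p = 0.00015). The 20-library fit called both Cyp2e1 (1.63, adjusted p = 0.0467) and Gulo (1.73, adjusted p = 0.0244).

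The innermost zone next to the central vein is marked by Glul, the glutamine synthetase. It was at 77.8, 933, 262, 281, 224, 173 and 181 CPM in HFD+veh replicates 1 to 7 and at 343 to 947 CPM in HFD+eRapa (median 738). HFD+veh replicate 2 lay among the HFD+eRapa animals, and the other 6 were below them all (log2 fold change 1.10, SE 0.39, edgeR adjusted p = 0.0317). Oat, an ornithine aminotransferase of the same zone, behaved alike, with a median of 181 against 583 CPM and a highest HFD+veh value of 975 CPM (1.15, SE 0.41, edgeR adjusted p = 0.0367). Tbx3, a transcription factor and target of Wnt signalling there, rose from a median of 4.68 to 27.4 CPM (1.82, SE 0.46, edgeR adjusted p = 0.00513). Without HFD+veh replicate 2 the log2 fold changes of Glul and Oat were 1.71 and 1.97, with adjusted p of 0.000458 and 7.67e-05. Both calls were lost on leaving out any 1 of HFD+veh replicates 3 to 7 or HFD+eRapa replicate 6, that of Glul also without HFD+eRapa replicate 4, and that of Oat also without HFD+veh replicate 1 or HFD+eRapa replicate 3 (adjusted p between 0.0503 and 0.0895). None of the 3 was called in the 20-library fit, and under total count scaling Glul and Oat were not called (adjusted p = 0.0633 and 0.0711) and 8 of the 15 genes were. The list's median was 1.2 in the 20-library fit, with 3 genes called higher.

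Periportal genes went the other way in part: 6 of 15 were called lower and 0 higher, with a median of -0.41, and in the 20-library fit 7 were called lower with a median of -0.81. Aldh1b1, a mitochondrial aldehyde dehydrogenase (mm10 chr4:45799022-45804604), ran from 144 to 387 CPM in HFD+veh (median 193) and from 16.7 to 56.5 CPM in HFD+eRapa (median 35.8). No animals overlapped (log2 fold change -2.69, SE 0.42, edgeR adjusted p = 0.000155), and the ND+veh median of 14.6 CPM was lower again. Called falls on the list included 3 enzymes that break down single amino acids: Sds, the serine dehydratase, fell from a median of 403 to 135 CPM (-1.55, SE 0.43, edgeR adjusted p = 0.00907), Hal, the histidine ammonia-lyase, from 606 to 290 CPM (-1.02, SE 0.36, edgeR adjusted p = 0.0316), and Gls2, the liver glutaminase, from 584 to 328 CPM (-0.80, SE 0.29, edgeR adjusted p = 0.0382).

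The ranges of Sds, Hal and Gls2 overlapped between the groups. The call of Hal was lost without HFD+veh replicate 1 or 5 or HFD+eRapa replicate 6, 7 or 8 (adjusted p between 0.0501 and 0.0982), and that of Gls2 without HFD+veh replicate 1, 2, 5 or 7 or HFD+eRapa replicate 4, 5, 6 or 8 (between 0.0536 and 0.129). In all 3 genes the changes were larger in the 20-library fit, at -2.19, -1.53 and -1.38 (adjusted p = 0.0193, 0.0351 and 0.00614). Cps1, the entry enzyme of the urea cycle and the most highly counted gene of the list, was not called in either fit (-0.20, edgeR adjusted p = 0.557 with all libraries, and -0.70, adjusted p = 0.172). On the wider list of amino acid breakdown and the urea cycle, which holds these 3 genes, 9 of 46 were called higher and 5 lower with a median of 0.03, and the 20-library fit called 0 higher and 7 lower with a median of -0.34. Ctsc, a lysosomal protease listed here as periportal, fell from 324 to 65.1 CPM (-2.34, SE 0.39, edgeR adjusted p = 0.00027). Macrophages express Ctsc too, and the value without the 4 libraries was -1.70 (adjusted p = 0.0362).

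**Figure D4:**
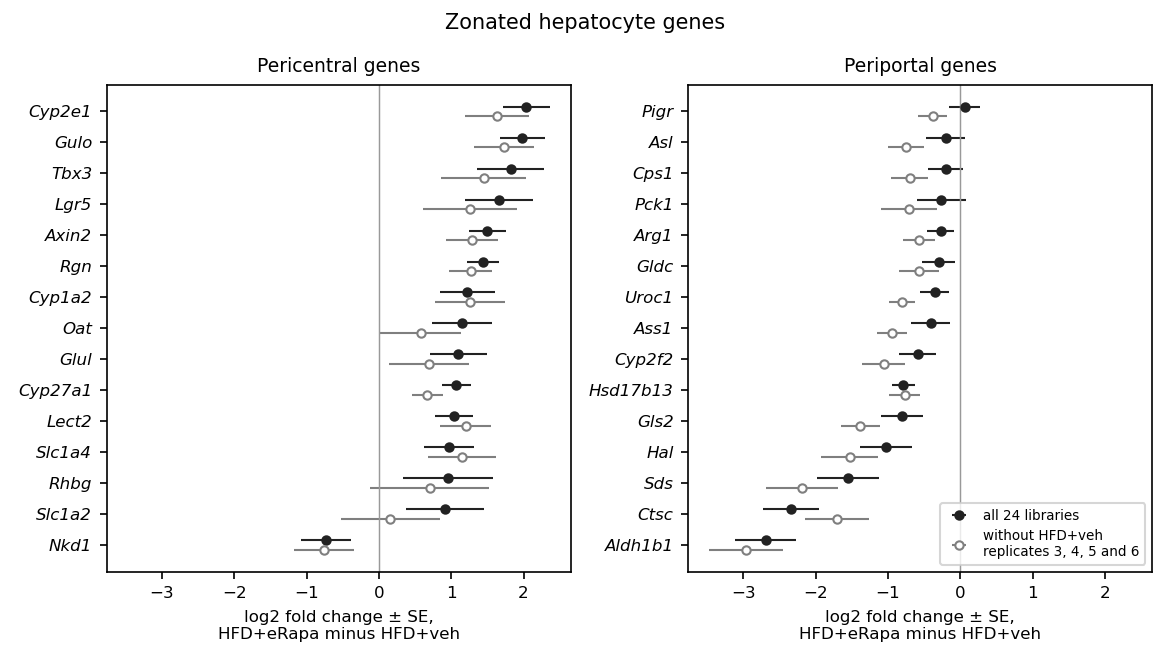
Log2 fold change (HFD+eRapa minus HFD+veh, bars ± SE) of 15 pericentral and 15 periportal genes, from all 24 libraries (filled) and without HFD+veh replicates 3, 4, 5 and 6 (open). All pericentral genes except Nkd1 lie above 0, and all periportal genes except Pigr with all libraries lie below 0.

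Drug-clearing enzymes moved in both directions. Of 29 genes of P450 families 1 to 3, 7 were called higher and 5 lower, with a median of 0.00. Among all genes 10.9% were called higher and 21.1% lower, so the lower calls did not exceed the share of all genes. Cyp2c54, of a large cluster of closely related genes, rose from a median of 15 to 141 CPM (log2 fold change 2.27, SE 0.48, edgeR adjusted p = 0.00186), and Cyp1a2, a caffeine-metabolizing pericentral P450, from 62.8 to 244 CPM (1.22, SE 0.38, edgeR adjusted p = 0.0158). Cyp2a5, a coumarin hydroxylase, fell from 208 to 78.0 CPM (-2.09, SE 0.60, edgeR adjusted p = 0.0111). In the 20-library fit these 3 were not called. Of 39 genes of phase II conjugation, 10 were called lower and 5 higher, 7 of the 10 being glutathione S-transferases. In either direction 38.5% of this list were called, not far from the 32.0% of all genes tested.

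Gsta2, an alpha-class transferase (mm10 chr9:78331018-78355788), was at 38.4 to 135 CPM in HFD+veh (median 68.6) and at 2.79 to 13.2 CPM in HFD+eRapa (median 7.31). The groups did not overlap (log2 fold change -3.23, SE 0.38, edgeR adjusted p = 8.66e-06), and the fall was called in the 20-library fit (-3.36, adjusted p = 0.000363). Gstt3, of the theta class, fell from a median of 60.3 to 16.2 CPM, also without overlap (-2.04, SE 0.28, edgeR adjusted p = 3.71e-05) and in both fits (-2.47, adjusted p = 0.000316 in the 20-library fit). The ND+veh median of Gstt3 was 54.2 CPM. Gstm3, of the mu class, fell from 148 to 20.2 CPM (-2.69, SE 0.73, edgeR adjusted p = 0.00796), but the 20-library fit gave -1.85 (adjusted p = 0.337). Targets of the antioxidant factor NRF2 had 8 of 21 called lower and 0 higher, beside 21.1% lower calls among all genes. Among the 8 was the quinone reductase Nqo1, from a median of 28 to 8.22 CPM (-1.60, SE 0.41, edgeR adjusted p = 0.00535). The 20-library fit called 0 of these targets.

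Bile acid genes had 9 called higher and 4 lower of 29. With 10.9% higher and 21.1% lower calls among all genes, only the higher calls exceeded the share of all genes. Besides Cyp7b1 and Slco1a1, Cyp27a1, which opens the acidic pathway in mitochondria, rose from a median of 205 to 468 CPM without overlap (log2 fold change 1.07, SE 0.20, edgeR adjusted p = 0.000536). Slco1a4, a transporter related to Slco1a1 and near it on chromosome 6, fell from 54.2 to 24 CPM (-1.25, SE 0.28, edgeR adjusted p = 0.00276). This fall was called in the 20-library fit (-1.48, adjusted p = 0.0311), whereas Cyp27a1 was not (0.67, adjusted p = 0.0866).

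In the breakdown of branched-chain amino acids 9 of 25 genes had higher calls and 0 lower ones, with a median of 0.29 that was 0.03 in the 20-library fit. Hsd17b10, a mitochondrial dehydrogenase of isoleucine breakdown, rose from a median of 99.4 to 207 CPM (log2 fold change 0.86, SE 0.16, edgeR adjusted p = 0.000706). It was called in the 20-library fit as well (adjusted p = 0.0462). For glucose, 3 of 37 genes were called higher and 7 lower, and 1 higher and 0 lower in the 20-library fit. With all libraries the share called was 27%, beside 32.0% of all genes tested. Ldha, which turns pyruvate into lactate, rose from 856 to 1657 CPM (0.75, SE 0.15, edgeR adjusted p = 0.000821), also in the 20-library fit (0.65, adjusted p = 0.0493). Irs2, the insulin receptor substrate that insulin itself represses, rose from 8.56 to 17.0 CPM (1.18, SE 0.31, edgeR adjusted p = 0.00617) but gave 0.73 (adjusted p = 0.455) there. Pkm, the pyruvate kinase of nonhepatocyte cells, fell from 74.6 to 12.6 CPM (-2.70, SE 0.61, edgeR adjusted p = 0.00276), which was -0.45 (adjusted p = 0.868) in the 20-library fit.

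Autophagy genes had 11 of 34 called higher and 3 lower, with a median of 0.21, beside 10.9% higher and 21.1% lower calls among all genes. The 20-library fit called 3 higher and 1 lower, and the median there was 0.04. Atg7, the E1-like enzyme of both conjugation systems, lay between 22.8 and 39.4 CPM in HFD+veh (median 34.3) and between 44.3 and 58.3 CPM in HFD+eRapa (median 51.4). Its groups did not overlap (log2 fold change 0.62, SE 0.10, edgeR adjusted p = 0.000158), and it was called in the 20-library fit (0.52, adjusted p = 0.0145). Map1lc3a, which encodes an LC3 protein of the autophagosome membrane, rose from a median of 24.7 to 46.7 CPM (0.99, SE 0.21, edgeR adjusted p = 0.00156), again in both fits (0.67, adjusted p = 0.035). Sqstm1, the cargo receptor p62, was not called (-0.08, SE 0.13, edgeR adjusted p = 0.668).

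The lysosome list ran opposite to autophagy, with 23 of 52 genes called lower and 1 higher, beside 21.1% lower calls among all genes. Ctsb, a cysteine protease, fell from a median of 1511 to 553 CPM (log2 fold change -1.50, SE 0.23, edgeR adjusted p = 0.000105). The 20-library fit called 5 lower and 1 higher, with -0.77 for Ctsb (adjusted p = 0.0387). Macrophages are rich in lysosomes, their markers fell in the same animals as given above, and their part in this result was not tested. Among heat shock chaperones, 8 of 24 were called higher and 0 lower, led by the inducible Hspa1b, from a median of 8.69 to 27.1 CPM (1.48, SE 0.39, edgeR adjusted p = 0.00637). Among all genes 10.9% were called higher. None of the 24 chaperones was called in the 20-library fit.

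Interferon-stimulated genes fell almost as a whole. Of 41 tested, 40 were called lower and 0 higher, with a median log2 fold change of -2.22, beside 21.1% lower calls among all genes. Their summed level was 2205, 2181, 4994, 4809, 1703, 5814 and 5174 CPM in HFD+veh replicates 1 to 7, and 1084 to 1713 CPM in HFD+eRapa (median 1341). The sums of 6 HFD+veh animals were above those of all HFD+eRapa animals, and replicate 5 was not. Beside them, the Kupffer cell marker sums of the same 7 animals were 178, 177, 3273, 2538, 2704, 4713 and 966 CPM. Replicates 3, 4 and 6 were high in both sums and replicates 1 and 2 low in the Kupffer cell sum. Replicate 5 had the lowest interferon-stimulated sum with a Kupffer cell sum of 2704 CPM. Replicate 7 was high in the interferon-stimulated sum, at 5174 CPM. Its Kupffer cell sum of 966 CPM was within the HFD+eRapa range, which reached 1043 CPM. The part of the marker difference in the fall was not tested.

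Ifi44, an interferon-induced cytoplasmic protein (mm10 chr3:151730922-151749960), had 24.7, 35.0, 156, 179, 13.2, 285 and 139 CPM in HFD+veh replicates 1 to 7 and 2.25 to 13 CPM in HFD+eRapa (median 6.25). The ranges were separate by a narrow margin (log2 fold change -4.12, SE 0.88, edgeR adjusted p = 0.00195). Ifit3, an antiviral protein built of tetratricopeptide repeats (mm10 chr19:34583531-34588731), fell from a median of 157 to 10.5 CPM (-3.54, SE 0.69, edgeR adjusted p = 0.000994), and Oas1a, a synthetase of the RNase L activator, from 58.2 to 4.39 CPM without overlap (-3.31, SE 0.67, edgeR adjusted p = 0.00127). Trim30a, a TRIM family protein of innate immunity (mm10 chr7:104409025-104465193), fell from 77.7 to 5.90 CPM (-3.42, SE 0.64, edgeR adjusted p = 0.000743, and -2.67 without HFD+veh replicate 6). In the 20-library fit these 4 gave -3.26, -2.62, -2.69 and -2.06, with adjusted p of 0.0747, 0.0582, 0.0661 and 0.0994. That fit called 10 of the 41 genes lower and 0 higher, with a median of -1.70, and the fit with the immune score as a covariate called 6 lower with a median of -1.18.

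Ifitm3, a membrane protein that blocks virus entry, was among the genes called in both fits. It was at 378 to 885 CPM in HFD+veh (median 590) and at 263 to 417 CPM in HFD+eRapa (median 352), which overlapped slightly (-0.74, SE 0.17, edgeR adjusted p = 0.00254 with all libraries, and -0.79, adjusted p = 0.035 in the 20-library fit). The guanylate-binding proteins and immunity-related GTPases had 16 of 17 called lower, with 4 in the 20-library fit. Gbp3 fell from a median of 99.1 to 10.4 CPM without overlap (-3.12, SE 0.69, edgeR adjusted p = 0.00239; -2.52, adjusted p = 0.107 in the 20-library fit). Of MHC class I and immunoproteasome genes 14 of 20 were called lower and 7 in the 20-library fit, with medians of -0.71 and -0.67. Psmb8, a catalytic subunit of the immunoproteasome (mm10 chr17:34197721-34201454), was at 34.4 to 68.7 CPM in HFD+veh (median 60.3) and at 12.4 to 26 CPM in HFD+eRapa (median 22.2), apart in every animal (-1.29, SE 0.19, edgeR adjusted p = 8.62e-05) and called in both fits (-1.13, adjusted p = 0.00778). H2-Q10, the secreted class I molecule of liver, was not called (0.24, edgeR adjusted p = 0.307).

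The promoters of these genes are shown because interferon acts through a short element, the interferon-stimulated response element (ISRE). Of the 41 listed genes, 29 had a RefSeq promoter window (250 bases before to 50 after the start, GRCm38.p6). The ISRE core GAAANNGAA was found on either strand in 16 of these 29 (55.2%), in 10 of 11 windows of the guanylate-binding and immunity-related GTPase list (90.9%) and in 5 of 17 of the MHC class I list (29.4%). It was in 9.76% of the 27025 genes in the table and in 0 of 19 windows of male-biased genes. The 3 interferon-stimulated genes with the largest change among those with a window and a mean log2 CPM of at least 3 are given 5′ to 3′ over 220 bases that end 50 bases after the start, with matches to the core in capitals: Ifi44 (GRCm38.p6 chr3:151749861-151750080, minus strand), Ifit3 (GRCm38.p6 chr19:34583359-34583578, plus strand) and Trim30a (GRCm38.p6 chr7:104465144-104465363, minus strand, the first of 2 windows in the table).
Ifi44: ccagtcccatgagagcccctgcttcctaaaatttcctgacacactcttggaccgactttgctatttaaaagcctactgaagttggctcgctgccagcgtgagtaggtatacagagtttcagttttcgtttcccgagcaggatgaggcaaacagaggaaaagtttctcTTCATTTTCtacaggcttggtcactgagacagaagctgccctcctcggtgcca
Ifit3: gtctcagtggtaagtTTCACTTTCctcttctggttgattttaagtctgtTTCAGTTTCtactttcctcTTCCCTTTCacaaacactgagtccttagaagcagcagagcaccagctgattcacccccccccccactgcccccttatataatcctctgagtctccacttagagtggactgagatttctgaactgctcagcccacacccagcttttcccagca
Trim30a: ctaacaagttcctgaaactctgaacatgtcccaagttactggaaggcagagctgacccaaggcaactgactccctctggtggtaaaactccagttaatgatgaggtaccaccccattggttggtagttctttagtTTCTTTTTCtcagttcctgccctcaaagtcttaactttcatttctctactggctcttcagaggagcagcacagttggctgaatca
In these windows the core occurred 1 time in Ifi44, 3 times in Ifit3 and 1 time in Trim30a. A match describes letters in the window and was not tested for binding. For the growth hormone effector STAT5, a core of TTCNNNGAA was in 2 of 19 windows of male-biased genes (10.5%). It was in 6 of 24 windows of female-biased genes (25.0%), beside 9.55% of all genes. The same letters were in 7 of 29 windows of interferon-stimulated genes (24.1%) and 6 of 11 of the guanylate-binding and immunity-related GTPase list (54.5%). They were in 1 of 17 MHC class I, 2 of 10 periportal and 0 of 10 pericentral windows. The core was thus not particular to the sex-biased lists. The core CTTTGAT of TCF/LEF factors, on either strand, was in 2 of 10 pericentral windows and 1 of 10 periportal windows, beside 4.29% of all genes.

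MHC class II genes, which antigen-presenting cells express, also fell with all libraries (8 of 8 called lower, median -2.59), and so did chemokines and cytokines (13 of 19, median -2.43) and collagens and matrix genes (15 of 17 lower and 1 higher, median -2.69). Cd74, the invariant chain of class II, ran from 19.3 to 395 CPM in HFD+veh and from 5.12 to 82.4 CPM in HFD+eRapa (log2 fold change -2.42, SE 0.79, edgeR adjusted p = 0.0229). It gave 0.29 (adjusted p = 0.96) in the 20-library fit, and its call was lost without HFD+veh replicate 3, 4 or 6 alone (adjusted p between 0.0542 and 0.0606). Col3a1, a fibrillar collagen of stellate cells, went from a median of 21.9 to 4.42 CPM (-3.32, SE 0.69, edgeR adjusted p = 0.00152), and gave -2.60 without HFD+veh replicate 4 and -0.57 (adjusted p = 0.811) in the 20-library fit. The macrophage gene Adgre1 had -3.20 (SE 1.01, edgeR adjusted p = 0.0184) and -0.31 (adjusted p = 0.966), with -2.39 (adjusted p = 0.0794) without HFD+veh replicate 6 and -3.90 without HFD+eRapa replicate 2. Adgre1 counts in the immune marker score by which the HFD+veh libraries to leave out were picked. Its smaller change in the 20-library fit therefore follows from that choice and is no test. The same applies in part to genes that vary with these markers, such as Cd74. None of the class II, chemokine and collagen genes was called in the 20-library fit. On the cell cycle list 6 of 26 were called lower (median -0.81), a share near the 21.1% of all genes, among them the replication clamp gene Pcna (-0.95, SE 0.24, edgeR adjusted p = 0.00503), and 0 called in the 20-library fit with a median of 0.27.

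Acute phase and complement genes, which hepatocytes secrete, were not lowered as a group: 2 of 24 acute phase genes were called higher and 2 lower, and 6 of 35 complement and coagulation genes were called higher and 2 lower. C6, a component of the membrane attack complex, ran from 55 to 158 CPM in HFD+veh (median 100) and from 165 to 501 CPM in HFD+eRapa (median 279). It was apart in all animals (log2 fold change 1.54, SE 0.26, edgeR adjusted p = 0.000263; 1.65, adjusted p = 0.0207 in the 20-library fit), and it is also on the male-biased list. C3, the central complement protein, was not called (0.02, edgeR adjusted p = 0.933, and -0.02 under total count scaling). Lbp, which binds bacterial lipopolysaccharide, fell from a median of 112 to 79.3 CPM (-0.67, SE 0.17, edgeR adjusted p = 0.00503) and was called in both fits. Saa1, the acute phase serum amyloid, was called higher on the strength of few libraries: HFD+eRapa replicate 2 had 957 CPM and the other 8 had 59.9 to 128 CPM, against 27.1 to 99.3 CPM in HFD+veh (1.39, SE 0.53, edgeR adjusted p = 0.0496). Without that library it gave 0.30 (adjusted p = 0.399), and the call was also lost without HFD+veh replicate 1, 2, 3, 4, 5 or 6 or HFD+eRapa replicate 8. The other acute phase gene called higher was Serpina3k, the most highly counted on the list (1.37, edgeR adjusted p = 0.000803). The 20-library fit called 0 acute phase genes higher and 2 lower.

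Among NAD genes, Nampt, the rate-limiting enzyme of NAD salvage, fell without overlap, from 69.5 to 286 CPM in HFD+veh (median 119) to 41.6 to 67.6 CPM in HFD+eRapa (median 53.9). It was called with all libraries (log2 fold change -1.24, SE 0.22, edgeR adjusted p = 0.000505) and in the 20-library fit (-0.85, adjusted p = 0.0137). The circadian clock list had 0 of 20 genes called in either fit by edgeR, and 0 by DESeq2 or voom with all libraries. At an unadjusted p under 0.05 edgeR gave 0 of them with all libraries and 4 in the 20-library fit. Hnf4a, the master regulator of hepatocyte identity, and Alb, which encodes albumin, were not called (0.42, edgeR adjusted p = 0.0771, and -0.52, edgeR adjusted p = 0.0734), although Alb was called lower under total count scaling (-0.62, adjusted p = 0.00699).

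Several of the largest changes over all genes lay outside these pathways. Avpr1a, the vasopressin receptor of hepatocytes (mm10 chr10:122448499-122453452), rose from 1.04 to 7.58 CPM in HFD+veh (median 2.40) to 10.1 to 39.4 CPM in HFD+eRapa (median 21.1), apart in all animals (log2 fold change 2.89, SE 0.34, edgeR adjusted p = 9.06e-06; 2.55, adjusted p = 0.00616 in the 20-library fit). Slc39a4, a zinc importer of the ZIP family (mm10 chr15:76612383-76617384), was at 28.3 to 64.6 CPM in HFD+veh (median 38.9) and at 0.718 to 10.6 CPM in HFD+eRapa (median 2.49), and was called in both fits (-3.56, SE 0.49, edgeR adjusted p = 4.25e-05; -3.53, adjusted p = 0.00231). Its ND+veh median was 12.2 CPM. Ly6a, which encodes the surface protein Sca-1, fell from a median of 83.7 to 3.62 CPM without overlap (-4.86, SE 0.86, edgeR adjusted p = 0.000461; -4.04 without HFD+veh replicate 6, and -3.13, adjusted p = 0.0496, in the 20-library fit). Slc25a30, a mitochondrial carrier, rose from a median of 20.4 to 82.9 CPM (2.2, SE 0.41, edgeR adjusted p = 0.00065; 2.14, adjusted p = 0.0642), and Olig1, a transcription factor known from glia, from 4.03 to 26 CPM (2.39, SE 0.36, edgeR adjusted p = 0.00011; 2.17, adjusted p = 0.00996).

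**Figure D5:**
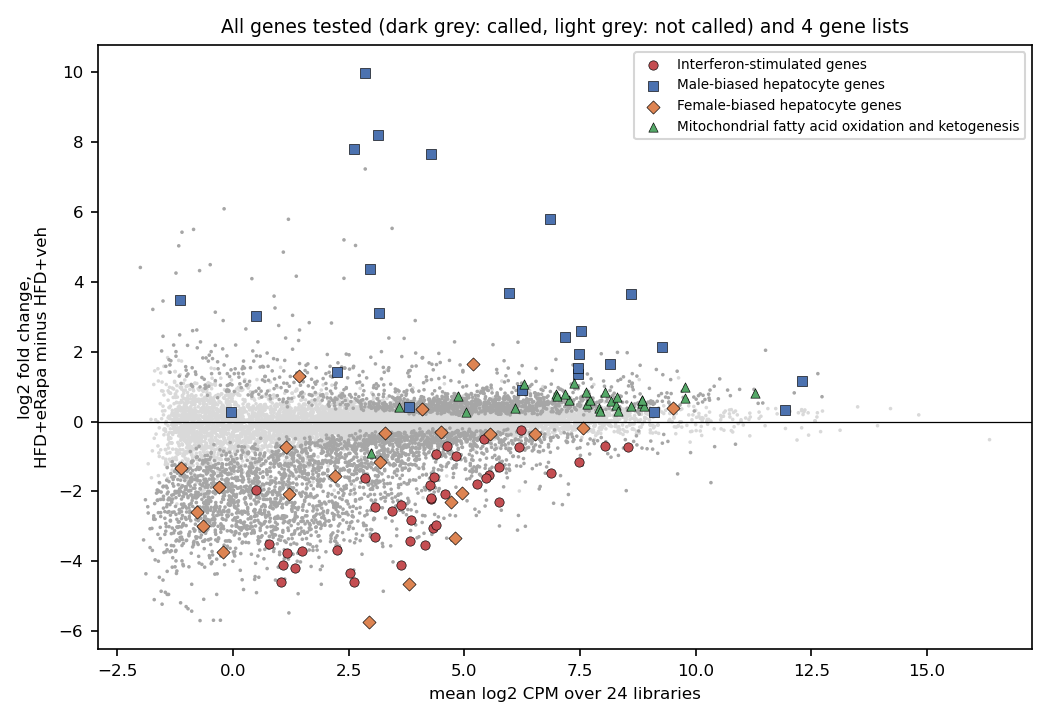
Log2 fold change (HFD+eRapa minus HFD+veh) against mean log2 CPM over 24 libraries for the 13847 genes tested, with 4 gene lists marked. The male-biased genes reach the largest rises (up to 9.98), most interferon-stimulated genes lie below -1, and the mitochondrial fatty acid oxidation genes form a narrow band between -0.89 and 1.10 at high levels.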

How the data were processed

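Per the labels and the study's methods, the authors aligned the reads with STAR to mm10 (Gencode annotation), filtered them with SAMtools 1.1.0 and counted reads per gene with HTSeq 0.11.2. The deposited counts are raw whole numbers per gene and library. Whether counting used strand is not given in the sources used here, so overlapping and antisense genes are uncertain, as are near-identical copies. The authors computed the deposited FPKM values with Cufflinks, per the study's methods. FPKM serves only for levels per length and for 1 alternative. Both tables list 55421 genes. No replicates were pooled, and each of the columns matched a sample.

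Counts were tested with edgeR 4.0.16 in R 4.3.3 (filterByExpr over the 3 groups, TMM, robust glmQLFit, glmQLFTest) in 1 fit of all 24 libraries without covariates, and p-values were adjusted by Benjamini-Hochberg over the 13847 genes kept. The SE of a log2 fold change is its size over the root of F. Log2 CPM used a prior count of 2. Depth was 17.8 to 23.6 M counts in the libraries compared. Over 57 pairs of libraries within groups, chi-square over degrees of freedom was 12.9 or more, beyond sampling noise, so each was counted as 1 replicate. The p-values measure the spread between these animals. Alternatives were DESeq2 1.42.0, limma 3.58.1 (voom, and log2(FPKM + pseudocount) with 1 or 0.1), other scalings and filters, the 16 libraries alone, a replicate block, marker scores as covariates (29 immune or 27 stromal genes), an added threshold of 1 on the absolute log2 fold change, and leaving out each library. The fit without HFD+veh replicates 3, 4, 5 and 6 was added after the data were seen. The edgeR, DESeq2 and voom fits were first tested on simulated data.

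The comparison, the 44 pathway lists and the 9 marker lists were chosen with earlier results of these data known. Of 1332 listed symbols 1331 were found in the count table, 4 of them under another symbol. A marker score is the mean z-score of its genes' log2 CPM. Named genes were fixed genes (Mtor, Rptor, Rictor, Fkbp1a, Hnf4a, Alb) and, per list, up to 3 called genes with the largest rise, up to 3 with the largest fall and the gene with the highest mean. Over all genes the 10 largest rises and falls without overlap were added, predicted genes being skipped. A mean log2 CPM of at least 3 was required, and a part of the genes that qualified is described. Cidea, Hsd3b5, Hamp2 and Ppargc1a were named outside this rule, after their values were seen. Some genes that qualified are not reported here. Gene positions are from Gencode M21 on GRCm38, the assembly of mm10, and promoters from RefSeq on GRCm38.p6.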

Additional observations from a re-analysis of the deposited data

Results flagged for a closer look

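In 210 sets of values (a gene, list mean or total in 1 group), 13 held a library far from the rest by Dixon's gap test, where chance alone gives about 10.5 (1 in 20). In HFD+veh, replicate 3 had the lowest total, 19.85 M counts, against 21.26 M in the next. Replicate 7 had a mean log2 CPM of 5.19 over the male-biased genes, next to at most 4.04 in the other libraries of the group, and a log2 CPM of 7.87 for Elovl3, next to at most 5.39. Replicate 6, the library with the highest immune marker score of both groups, stood apart for 4 genes: Ctsc was high at 10.07 (next 8.64), and Map1lc3a at 2.68 (next 4.18), Atg7 at 4.52 (next 5.0) and H2-Q10 at 9.67 (next 11.01) were low. In HFD+eRapa, replicate 2 had high log2 CPM of Saa1, at 9.90 (next 7.0), and of Sesn1, at 4.23 (next 3.68), and a low Tbx3, at 2.97 (next 4.30). Replicate 6 was high for Cyp2e1 at 12.69 (next 12.30) and low for Psmb8 at 3.65 (next 4.18), and replicate 9 was low for Cyp2a5 at 4.42 (next 5.67). The fold changes of Elovl3 and Saa1 without the library concerned are given with these genes in the report.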

How the results depend on the processing

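The marker covariates and the 4 HFD+veh libraries richest in immune markers changed the results most. Against 4432 called genes (1507 higher, 2925 lower), leaving out those 4 libraries, an alternative chosen after the data were seen, left 440 (172, 268), the immune score as a covariate 955 (416, 539) and the stromal score 739 (332, 407). The same 3 settings, in that order, called 10, 6 and 3 interferon-stimulated genes (40 in the report), 7, 15 and 9 of mitochondrial fatty acid oxidation (25) and 0, 1 and 0 of cholesterol synthesis (8). Without the 4 libraries and with the stromal score, 8 and 12 male-biased genes (19) and 4 and 8 droplet genes (13) were called, and without the 4 libraries 5 female-biased genes (12). These settings turned the direction of some named genes: Lpl (0.07 without the 4 libraries, 0.03 with the immune and 0.45 with the stromal score), Cd74 (0.29, 0.47 and 0.86), and, with the stromal score, Cd36 (0.14) and Adgre1 (0.28). The cause was not tested. Keeping only calls that changed by 1 or more on the log2 scale left 2284 calls (298 higher), 8 droplet, 2 oxidation and 0 cholesterol genes, by its construction. Total counts without TMM gave 968 higher genes and limma on FPKM 873 (pseudocount 1) and 869 (0.1), each FPKM fit with 4 cholesterol genes, and voom gave 7 droplet and 3 cholesterol genes. The replicate block called 2532 genes (1459 lower) and 8 droplet genes. Same-numbered libraries of both groups correlated between -0.659 and 0.495 after group means were removed, so the numbers do not pair the animals. Leaving out 1 library gave 3260 to 4957 calls (1109 to 1806 higher, 2033 to 3162 lower), and 39 to 40 interferon-stimulated, 19 to 20 male-biased, 10 to 14 female-biased, 9 to 13 droplet, 24 to 27 oxidation and 6 to 13 cholesterol genes. Of 85 named genes called in the report, Ppargc1a, Jak2, Igfbp7 and Serpina3k not counted, 84 were called by DESeq2, 73 by voom, 74 with the replicate block, 79 on FPKM, 55 and 45 with the immune and stromal scores and 37 without the 4 libraries. At these depths, genes at a few CPM carry the widest counting error.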
